A study of Mus musculus with 14 samples.

Results

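The glutathione, thioredoxin and NRF2 antioxidant genes are 43 listed mouse genes that make, recycle or use the cell's thiol reductants or that answer to the transcription factor NRF2. They are listed by symbol, in a list drawn up with earlier results of these data known, and a gene counted as measured where a probe set named that gene alone. This held for 37 of the 43, out of 22180 genes measured in the series. Ggt1, G6pdx, Tkt, Prdx1, Prdx5 and Prdx6 were not analysed here. Each measured member was represented by 1 probe set, the brightest over all arrays, and 4 members (Cbr1, Glrx5, Keap1 and Slc7a11) had a further one.

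The 14 samples were livers of male mice of the inbred C57BL/6J strain, with no engineered allele named in the labels. The labels number the samples without saying that each is a separate animal; each was taken as 1 mouse and is called by its number. One group of 7 (mice 1, 2, 3, 5, 6, 10 and 13) had been kept awake in a single sleep deprivation, which the series title puts at 6 h, and the other 7 (mice 4, 7, 8, 9, 11, 12 and 14) were controls. Of the methods tried in the study (gentle handling, a water platform or a change of cage), the labels do not say which one these livers followed, and they give no age, feeding state or time of day. RNA was read on Affymetrix whole-transcript arrays, and values are log2 expression, so that a difference of 1 is a doubling. Array medians lay between 3.443 and 3.491 and any pair of arrays correlated at 0.984 to 0.990. The hepatocyte markers Alb and Ttr were high in both groups, with mean levels of 13.31 and 12.97 in sleep-deprived and 13.31 and 12.98 in control livers.

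As background, glutathione is a small thiol that the liver makes in large amounts, from cysteine, glutamate and glycine, in a first step run by glutamate-cysteine ligase and a second run by glutathione synthetase. Glutathione peroxidases, glutaredoxins and transferases spend it, while the parallel thioredoxin and peroxiredoxin system reduces proteins and peroxides, and both draw their electrons from NADPH. NRF2, encoded by Nfe2l2, is held back by the adaptor protein KEAP1 and, once released by oxidants or electrophiles, raises many of these genes by binding the antioxidant response element in their regulatory DNA.

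After sleep deprivation, both subunits of glutamate-cysteine ligase and both quinone reductases were lower, together with a mitochondrial glutaredoxin and the main cellular glutathione peroxidase. In the other direction, the cytosolic glutaredoxin, the secreted glutathione peroxidase and the thioredoxin inhibitor Txnip were higher. Across the 37 measured members, 6 were lower (Gclc, Gclm, Nqo2, Glrx5, Nqo1 and Gpx1), 3 higher (Glrx, Gpx3 and Txnip) and 28 did not pass the test (limma, p adjusted over all 22180 genes, threshold 0.05). Over all genes tested the same rule called 8.50%, with 3.88% higher and 4.62% lower. Among the brighter genes, those above the median of all genes by their mean over the arrays, it called 16.0%, with 7.33% higher and 8.71% lower, and 36 of the 37 members are among these. The members' shares were 24.3% called, 8.11% higher and 16.2% lower. Their median log2 difference was -0.068, against -0.0048 over all genes, and 25 of the 37 lay below 0, against 51.6% of all genes. The differences were small, from -0.59 (Gclc) to 0.51 (Txnip). Only 3 members (Gclc, Gclm and Gpx1) had groups whose values did not overlap, which held for 3.13% of all genes and 6.09% of the brighter ones. With sleep-deprived mouse 2 or 13 or control mouse 4 left out, only 1 member, Glrx, was called higher. Among the lower members, Gclc, Gclm, Nqo2 and Glrx5 kept their calls whichever mouse was left out. Nqo1 lost its call in 11 of these 14 fits and Gpx1 in 12. With its 2 probe sets averaged, Glrx5 lost its call. Because a whole liver was sampled, fewer cells of a type and less RNA per cell cannot be told apart in any of these values.

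**Figure D1:**
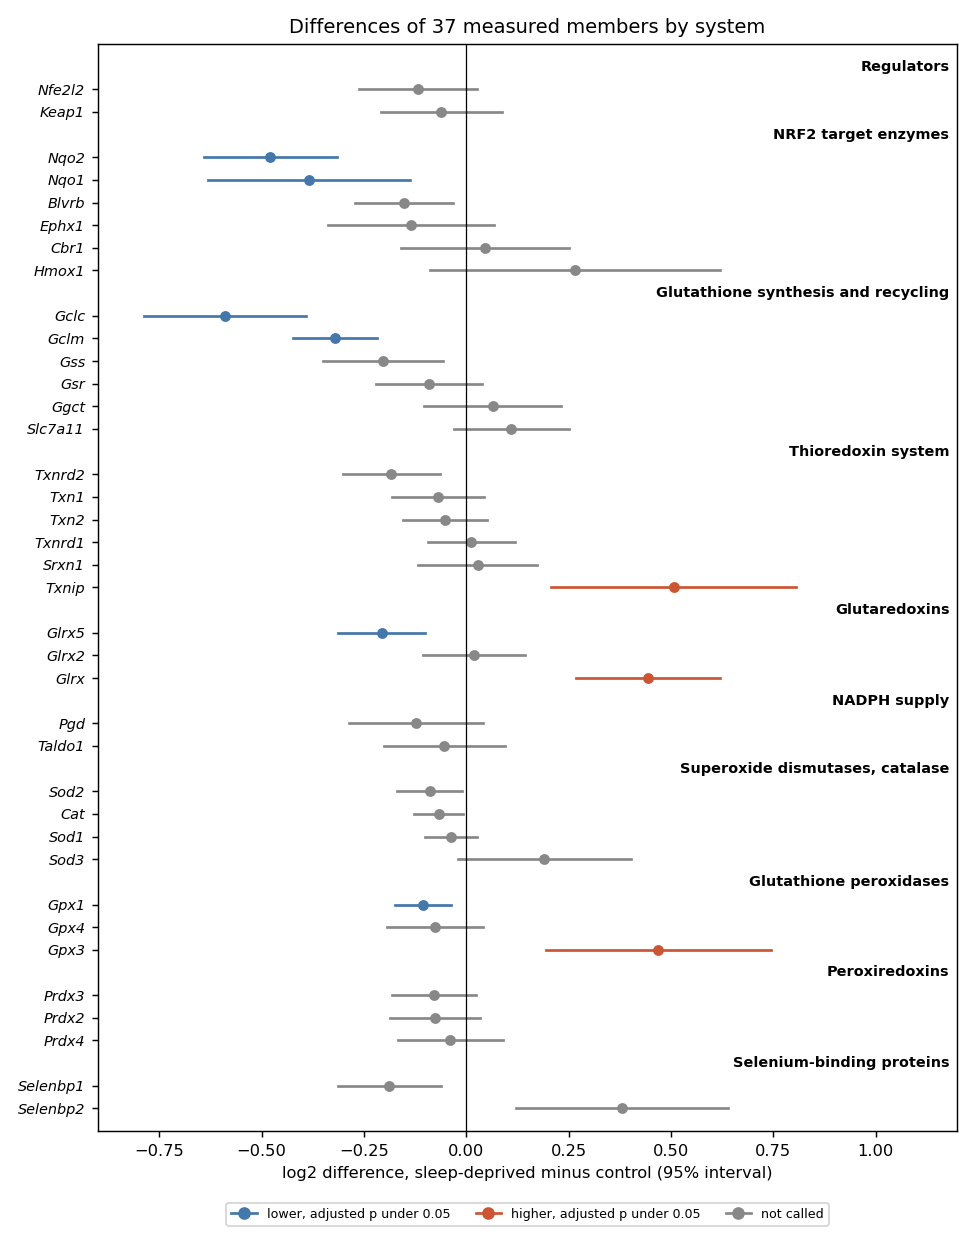
Log2 difference (sleep-deprived minus control, horizontal axis) of each of the 37 measured members, grouped by antioxidant system. Points are limma estimates over 7 mice per group and bars their 95% intervals. The 6 members called lower are blue, led by Gclc at -0.59, and the 3 called higher are red, led by Txnip at 0.51.

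Glutathione synthesis carried the clearest change among the members. Gclc (probe set 17519579), which encodes the catalytic subunit of glutamate-cysteine ligase, ran from 8.67 to 9.34 with a median of 8.90 in sleep-deprived livers, and from 9.37 to 9.83 with a median of 9.52 in controls. Every sleep-deprived liver was below every control liver, mouse 10 coming closest to the controls and mouse 5 being lowest. The log2 difference was -0.59 ± 0.094 (moderated SE from limma, n = 7 per group, as for the genes below), which puts Gclc at 66.5% of its control level (adjusted p = 0.000345). Gclm (probe set 17402283), the modifier subunit that makes the enzyme more efficient, ran from 9.52 to 9.76 with a median of 9.64 after sleep deprivation and from 9.89 to 10.13 with a median of 9.93 in controls. Again the groups were fully apart, and mouse 10 was again the highest of the sleep-deprived livers. Its difference was -0.32 ± 0.049, or 80.1% of control (adjusted p = 0.000219). Leaving out any 1 of the 14 mice kept both calls, and the highest adjusted p was then 0.00116 for Gclc and 0.000762 for Gclm.

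The other 4 measured genes of glutathione synthesis and recycling did not pass. Gss, the synthetase that adds glycine, was at -0.20 ± 0.070 and did not pass (adjusted p = 0.0856), although 5 of the 7 sleep-deprived livers lay below every control. It passed without sleep-deprived mouse 1 (adjusted p = 0.0437). Gsr, the reductase that returns oxidised glutathione to its thiol form, was at -0.090 ± 0.062 (adjusted p = 0.495), with a 95% interval from -0.22 to 0.039. Slc7a11, the cystine importer, had means of 2.21 ± 0.072 and 2.10 ± 0.14 (SD, n = 7 each), below the median of every array, and its difference of 0.11 ± 0.067 did not pass (adjusted p = 0.424). Of this system 6 of 7 genes were measured, of which 2 were lower and 0 higher, and the remaining member Ggct was at 0.065.

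NRF2 and its inhibitor did not pass the test at the level of RNA. Nfe2l2 ran from 7.41 to 7.82 with a median of 7.61 after sleep deprivation and from 7.53 to 7.94 with a median of 7.74 in controls. The groups overlapped widely, and the difference of -0.12 ± 0.069 had a 95% interval from -0.26 to 0.027 (limma, adjusted p = 0.396). Keap1 was at -0.061 ± 0.071 (adjusted p = 0.735), with an interval from -0.21 to 0.087. NRF2 is known to be governed mainly through the stability of its protein, which these arrays do not measure.

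Both quinone reductases were lower. Nqo2 (probe set 17286462), a quinone reductase that takes its electrons from dihydronicotinamide riboside, ran from 7.26 to 7.78 with a median of 7.33 after sleep deprivation and from 7.67 to 8.07 with a median of 7.91 in controls. In 6 of the 7 sleep-deprived livers it was below every control. The exception was mouse 10, whose 7.78 lay within the control range and apart from the other sleep-deprived livers, the next of which was at 7.46. The difference was -0.48 ± 0.078, or 71.8% of control (limma, adjusted p = 0.000423), and the call held in each of the 14 fits that left out 1 mouse. Nqo1 (probe set 17512732), a classic NRF2 target that reduces quinones with NADH or NADPH, ran from 3.92 to 4.79 with a median of 4.40 after sleep deprivation and from 4.40 to 5.10 with a median of 4.85 in controls. The groups overlapped: sleep-deprived mice 1, 3, 6 and 10 lay within the control range and 3 of 7 were below every control, while control mouse 9 was at the sleep-deprived median. Its difference was -0.38 ± 0.12 (adjusted p = 0.0482). This call rests on a narrow margin, being kept without sleep-deprived mouse 6, control mouse 9 or control mouse 14 and lost without any of the other 11, with adjusted p from 0.0545 to 0.105.

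The other 4 NRF2-linked enzymes did not pass. Hmox1, which encodes the heme-degrading heme oxygenase, had the largest SE of the members, running from 5.08 to 5.91 after sleep deprivation and from 4.67 to 5.94 in controls, and its difference was 0.27 ± 0.17 (limma, adjusted p = 0.450). Blvrb, a biliverdin reductase singled out here after its value was seen, was at -0.15 ± 0.057, with all 7 sleep-deprived livers below the control mean (adjusted p = 0.122). The epoxide hydrolase Ephx1 was at -0.13 and the carbonyl reductase Cbr1 at 0.046. In all, 2 of these 6 enzymes were lower and 0 higher.

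The NRF2 element was then looked for in the promoters. RefSeq windows of 300 bases, from 250 before to 50 after a gene's start on GRCm38.p6, were at hand for 33 of the 37 measured members; Hmox1, Gclc, Gsr and Sod3 had none. The core of the antioxidant response element, TGACNNNGC read on both strands, occurred in 7 of the 33 members (21.2%), against 14.0% of all 27025 genes. Counted by window, it occurred in 7 of the 45 windows of members, against 12.4% of all 32851 windows. Of the 8 called members with a window, 1 held it, Gclm. A core followed by A, which is nearer to the full element, occurred in Pgd and Txnrd1 and in 3.45% of all genes. The AP-1 site TGACTCA, which coincides with the core where GC follows it, occurred in Glrx and Srxn1 and in 5.95% of all genes, and in none of the member cores below. A match of letters is a description of the window and not evidence of a bound site. Bases outside these windows were not searched, so a window without the core does not show that the gene lacks the element.

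The cores found in members are shown with their neighbouring bases, since they include a called gene (Gclm), the gene of NRF2 itself and several members that did not pass. Each line reads 5′ to 3′ along the strand that carries the core, and capitals mark the core.
Gclm, chr3:122245413-122245441, minus strand: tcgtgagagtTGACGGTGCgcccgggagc
Nfe2l2, chr2:75704885-75704913, minus strand: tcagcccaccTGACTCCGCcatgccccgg
Txnrd1, chr10:82859104-82859132, minus strand: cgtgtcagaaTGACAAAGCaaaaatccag
Srxn1, chr2:152105542-152105570, minus strand: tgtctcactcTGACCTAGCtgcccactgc
Sod1, chr16:90220696-90220724, minus strand: ggcctgagtcTGACCACGCccaccttggc
Pgd, chr4:149166061-149166089, minus strand: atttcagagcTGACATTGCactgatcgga
Ggct, chr6:54993023-54993051, plus strand: tcccgcccacTGACGTCGCttttctattg
Ggct, chr6:54992844-54992872, minus strand: tctctgtgctTGACGCTGCtggcgtggat

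In Gclm the core begins 134 bases before the start on the strand opposite to the gene. The 250 bases before the start of Gclm and of Nqo1 are given whole for comparison, each along its gene's own strand, because both genes were lower and one window holds the core while the other does not. In Gclm the core therefore reads in capitals as its reverse complement.
Gclm, chr3:122245307-122245556, plus strand: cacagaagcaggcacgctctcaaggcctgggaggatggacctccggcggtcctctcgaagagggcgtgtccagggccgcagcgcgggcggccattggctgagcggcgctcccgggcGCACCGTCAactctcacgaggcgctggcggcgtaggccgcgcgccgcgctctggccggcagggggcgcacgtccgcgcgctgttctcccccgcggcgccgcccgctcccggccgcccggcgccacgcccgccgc
Nqo1, chr8:107403206-107403455, minus strand: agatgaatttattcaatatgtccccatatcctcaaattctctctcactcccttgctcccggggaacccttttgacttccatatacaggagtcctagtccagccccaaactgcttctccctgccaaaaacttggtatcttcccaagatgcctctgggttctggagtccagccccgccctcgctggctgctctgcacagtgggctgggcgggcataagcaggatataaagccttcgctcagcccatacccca

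In the thioredoxin system 1 of 6 genes was higher and 0 lower. Txnip (probe set 17400599) encodes a protein that binds and inhibits thioredoxin and restrains glucose uptake. It ran from 8.92 to 9.77 with a median of 9.59 after sleep deprivation and from 8.50 to 9.45 with a median of 8.98 in controls. The controls spread widely, and 5 of the 7 sleep-deprived livers were above all of them, while mouse 6 was below the control mean. The difference was 0.51 ± 0.14, or 142% of control (limma, adjusted p = 0.0308). That call was lost without sleep-deprived mice 2, 5, 10 or 13 or control mice 4, 9 or 12 (adjusted p from 0.0535 to 0.0725) and with robust eBayes (0.0868).

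The other members of this system did not pass. Txn1, the cytosolic thioredoxin, was at -0.068 ± 0.054 (limma, adjusted p = 0.569). Its reductase Txnrd1 was at 0.012 ± 0.050 (adjusted p = 0.939), with a 95% interval from -0.093 to 0.12. Srxn1, the sulfiredoxin that repairs overoxidised peroxiredoxins and a well-known NRF2 target, was at 0.028 ± 0.069 (adjusted p = 0.895). The signs of Txnrd1 and Srxn1 turned in 3 fits each that left out 1 mouse. In mitochondria Txn2 was at -0.052 and its reductase Txnrd2 at -0.18 ± 0.057. Txnrd2, singled out after its value was seen, just missed the threshold (adjusted p = 0.0513) and was below every control in 6 of the 7 sleep-deprived livers. Without sleep-deprived mouse 5, control mouse 11 or control mouse 12 it passed (adjusted p = 0.0499, 0.0463 and 0.0410).

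The 3 glutaredoxins included 1 higher and 1 lower gene. Glrx (probe set 17288716), the cytosolic enzyme, ran from 8.18 to 8.80 with a median of 8.57 after sleep deprivation and from 7.89 to 8.20 with a median of 8.07 in controls. The sleep-deprived livers spread over a wider range than the controls, and 6 of 7 were above all controls, mouse 6 being the exception by a small margin. Its difference was 0.44 ± 0.084, or 136% of control (limma, adjusted p = 0.00163). Glrx5 (probe set 17278345), the mitochondrial protein that hands on iron-sulfur clusters, ran from 8.78 to 9.03 with a median of 8.92 after sleep deprivation and from 9.00 to 9.21 with a median of 9.16 in controls. Here 6 of 7 sleep-deprived livers were below every control, and the difference was -0.21 ± 0.051, or 86.7% of control (adjusted p = 0.0131). The calls of Glrx and Glrx5 held in each fit that left out 1 mouse. A dimmer probe set of Glrx5 was at -0.049, and with the 2 averaged Glrx5 was at -0.13 (adjusted p = 0.203). Glrx2, the other mitochondrial glutaredoxin, was at 0.019.

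Of the glutathione peroxidases 1 of 3 was lower and 1 higher. Gpx1 (probe set 17521681), the abundant enzyme of the cytosol and mitochondria, ran from 11.25 to 11.33 with a median of 11.30 after sleep deprivation and from 11.34 to 11.49 with a median of 11.38 in controls. All 7 sleep-deprived livers were below all controls, yet the gap was small, at -0.11 ± 0.033 or 92.9% of control (limma, adjusted p = 0.0498). The Gpx1 call held without control mouse 7 or control mouse 14 and was lost without any of the other 12 mice (adjusted p from 0.0564 to 0.103). Gpx3 (probe set 17249787), the secreted enzyme of blood plasma, ran from 4.00 to 5.03 with a median of 4.76 after sleep deprivation and from 3.87 to 4.31 with a median of 4.29 in controls. Sleep-deprived mouse 6 lay among the controls and the other 6 above all of them. Its difference was 0.47 ± 0.13, or 138% of control (adjusted p = 0.0292), a call lost without sleep-deprived mice 1, 2, 10 or 13 or control mice 4 or 11 (adjusted p from 0.0568 to 0.0721). Gpx4, which reduces lipid peroxides in membranes, was at -0.076 and did not pass (adjusted p = 0.536).

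**Figure D2:**
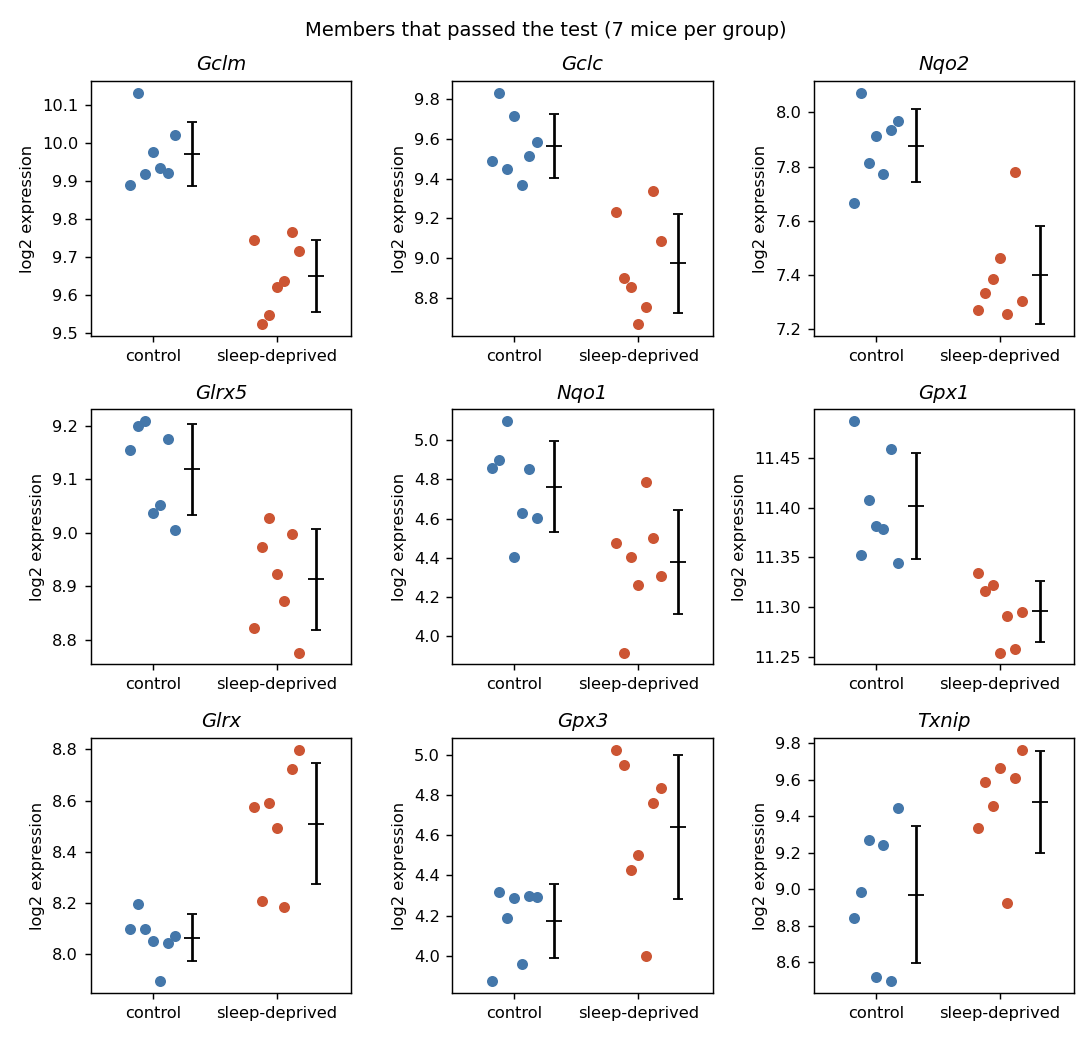
Log2 expression (vertical axis, a separate scale in each panel) of the 9 members past the test in 7 control (blue) and 7 sleep-deprived (red) livers, ordered from lower to higher genes by adjusted p. Each point is 1 mouse, and the bar beside each group is its mean ± SD. The groups of Gclm, Gclc and Gpx1 do not overlap, and in Nqo2 1 sleep-deprived liver, at 7.78, lies among the controls.

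The superoxide dismutases, catalase, the measured peroxiredoxins and the members that supply NADPH held no called gene. Cat, the catalase of peroxisomes, ran from 12.67 to 12.79 after sleep deprivation and from 12.75 to 12.85 in controls, a difference of -0.068 ± 0.029 (limma, adjusted p = 0.186). Sod1, the cytosolic superoxide dismutase, was at -0.037 ± 0.030 (adjusted p = 0.592), and Sod2, the mitochondrial one, at -0.090 ± 0.038 (adjusted p = 0.177). Both Cat and Sod2 were below the control mean in 7 of 7 sleep-deprived livers. Sod3, the extracellular dismutase, was at 0.19 ± 0.10 and above all controls in 5 of 7 sleep-deprived livers (adjusted p = 0.326). In the pentose phosphate pathway, which makes NADPH, 2 of 4 genes were measured, and Pgd was at -0.12 ± 0.079 (adjusted p = 0.453) and Taldo1 at -0.054. The 3 measured peroxiredoxins of 6, which break down peroxides with thioredoxin, lay between -0.078 (Prdx3, adjusted p = 0.441) and -0.039.

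The selenium-binding proteins, a closely related pair of liver genes, pointed in opposite directions without passing. Selenbp1 was at -0.19 ± 0.060 (limma, adjusted p = 0.0602), with 5 of 7 sleep-deprived livers below every control. Selenbp2 ran from 11.55 to 12.56 with a median of 12.00 after sleep deprivation and from 11.52 to 12.01 with a median of 11.66 in controls, and its difference was 0.38 ± 0.12 (adjusted p = 0.0639). Mice 2, 3 and 6 were above all controls and mouse 10 was the lowest of its group. Selenbp1 passed without sleep-deprived mouse 6 or control mouse 12 (adjusted p = 0.0311 and 0.0360), and Selenbp2 without control mouse 8 or sleep-deprived mouse 10 (0.0399 and 0.00948). Arrays can mix signal between such similar transcripts, and how far they did so here was not tested.

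By mouse, the called members can be described but not tested, having been called on these livers. In 6 of the 7 every one of the 3 higher members was above the control mean, while mouse 6 had 1 of 3, Glrx, and single controls had 1 to 3. Mouse 6 was the lowest of its group for Txnip, Glrx and Gpx3 and the highest for Nqo1, but also the lowest for Nqo2, at 7.26. Mouse 10 had the highest sleep-deprived values of Gclc (9.34), Gclm (9.76) and Nqo2 (7.78), while its Glrx, at 8.72, was above all controls. All 6 lower members were below the control mean in 6 sleep-deprived mice and 5 of them in mouse 6, against 1 to 6 in single controls. Without mouse 6, 3 members were higher and 6 lower, with Selenbp1 in place of Gpx1. Without mouse 10, 2 were higher (Glrx and Selenbp2) and 4 lower (Gclc, Gclm, Glrx5 and Nqo2).

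**Figure D3:**
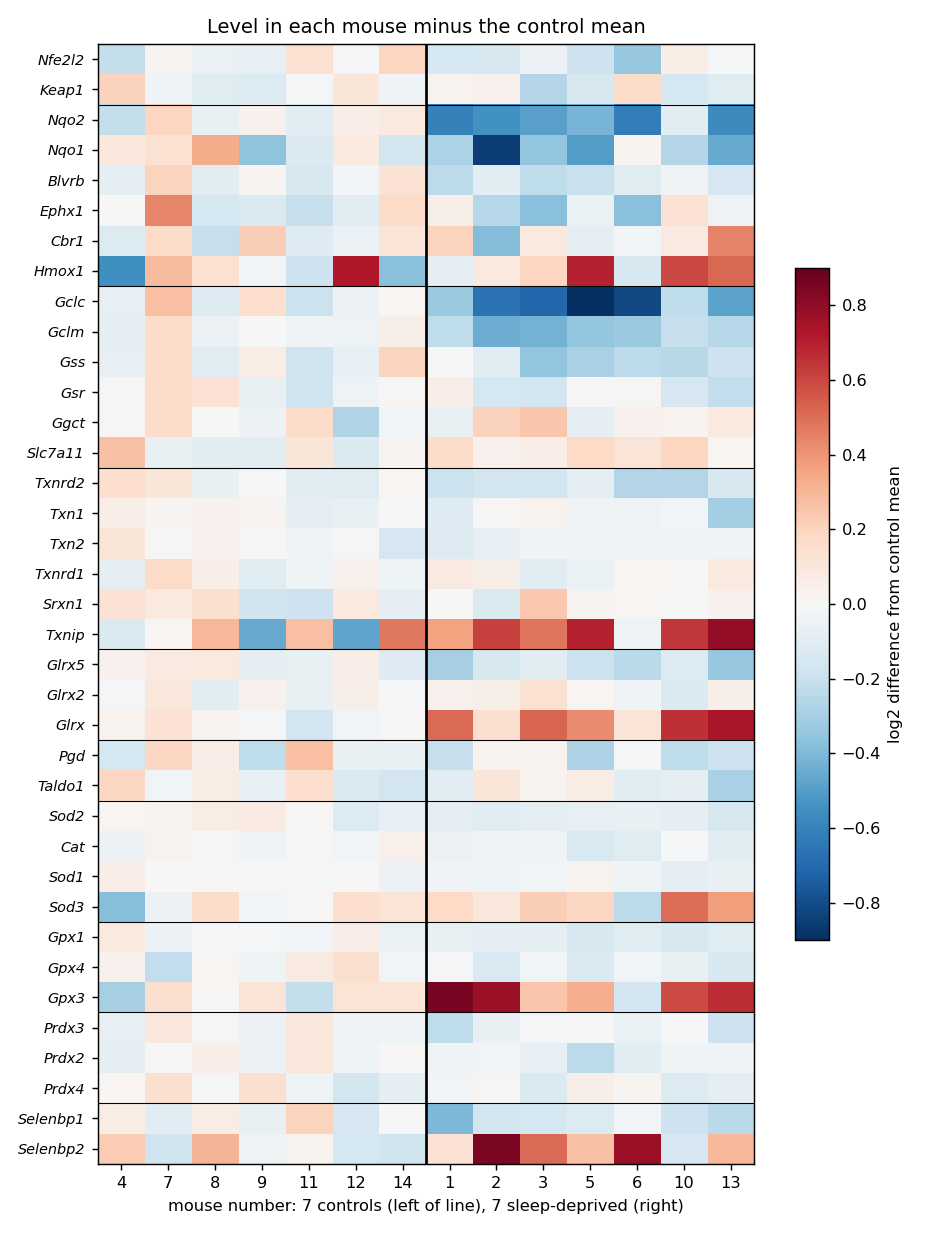
Level of each of the 37 measured members (rows, grouped by system) in each liver (columns, with 7 controls left and 7 sleep-deprived right of the line), as the log2 difference from the control mean of that gene. Red is above and blue below the control mean. Sleep-deprived mouse 6 is blue for Gclc and pale for Glrx and Gpx3, and mouse 10 is pale for Nqo2.

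Whether NRF2 targets varied together between livers of 1 group was tested for Gclc, Gclm, Nqo1 and Txnrd1 in pairs, which gave 12 relations. Gclc and Gclm had the highest Pearson correlation in each group, while their Spearman's rho in controls was equalled by that of Nqo1 and Txnrd1. Over the 7 controls Pearson's r was 0.836 (exact permutation p = 0.0179, adjusted over the 12 relations 0.215) and Spearman's rho 0.714 (exact permutation p = 0.0881, adjusted 0.417). Over the 7 sleep-deprived livers r was 0.749 (exact permutation p = 0.0631, adjusted 0.379) and rho 0.679 (exact permutation p = 0.110, adjusted 0.417). Without the 2 livers farthest from the median of Gclc, r was 0.565 in controls and 0.319 after sleep deprivation. With so few livers left r is unstable. Leaving out the 2 farthest from the median of Gclm took Gclm and Txnrd1 after sleep deprivation from 0.474 to 0.955. The 12 relations all failed the correction, and Gclc and Nqo1 had r of -0.214 in controls and 0.101 after sleep deprivation (exact permutation p = 0.637 and 0.838).

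Further genes of these pathways came from 5 lists with 101 genes, 96 of them measured. Among these 5 were higher and 12 lower, or 5.21% and 12.5%, with a median of -0.031. Over all genes 3.88% were higher and 4.62% lower, and over the brighter genes 7.33% and 8.71%, so that the share higher lay between these and the share lower above both. By list, the percentages called in either direction were 31.6 for other NRF2 targets, 21.1 for glutathione supply and breakdown, 16.7 for NADPH and oxidant sources, 9.09 for NRF2 partners and repressors and 8.70 for other thiol enzymes, against 8.50% of all genes and 16.0% of the brighter ones. Leaving out sleep-deprived mouse 1, 3, 5, 10 or 13 or control mouse 4 gave 3 higher, and leaving out sleep-deprived mouse 2 gave 8. In the list of other NRF2 targets 5 of 19 were lower and 1 higher, with a median of -0.15. Of the 19, 17 lay below 0 (89.5%), against 64.6% of all 96 related genes and 51.6% of all genes. Those below 0 include Gstm1, Gstm2, Gstm3 and Gstm4, genes of the same family of which none passed. Each of these was lowest among sleep-deprived livers in mouse 13, so the signs need not be independent. The list was also drawn up with earlier results of these data known. Osgin1, an oxidative stress-induced growth inhibitor, ran from 7.98 to 8.18 after sleep deprivation and from 8.60 to 9.16 in controls. Its groups lay far apart, and its difference of -0.79 ± 0.074, or 58.0% of control, was larger than that of any member (limma, adjusted p = 1.18e-06). Idh1, which makes NADPH in the cytosol, was at -0.32 ± 0.049 (adjusted p = 0.000211), also without overlap. The export pumps Abcc2 and Abcc3 were at -0.19 and -0.39, and the aldehyde oxidase Aox1 at -0.33. Abcc3 lost its call without sleep-deprived mice 1, 2 or 13 or control mice 4, 9 or 14 (adjusted p from 0.0550 to 0.0677). The higher gene was Tfe3 (0.24 ± 0.055, adjusted p = 0.00740), a transcription factor of lysosomal genes whose place among NRF2 targets is doubtful; without it the list had 0 higher genes.

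Among NADPH sources, Nadk2, the mitochondrial kinase that makes NADP from NAD, ran from 8.74 to 8.93 after sleep deprivation and from 9.16 to 9.37 in controls, a difference of -0.43 ± 0.047 or 74.1% of control (limma, adjusted p = 5.42e-06). Idh2, the mitochondrial NADPH-making isocitrate dehydrogenase, was at -0.40 ± 0.076 (adjusted p = 0.00156) and Mthfd1, a folate enzyme that can also make NADPH, at -0.22 ± 0.051 (adjusted p = 0.00944). This list of NADPH and oxidant sources also held genes that are neither, such as the metallothioneins Mt1 and Mt2. In it 3 of 24 genes were lower and 1 higher, Mt2 at 0.83 ± 0.24 (adjusted p = 0.0360). Mt2 was at 10.48 to 12.11 after sleep deprivation and 9.85 to 11.52 in controls, and its call was lost without sleep-deprived mice 1, 3, 5, 6, 10 or 13 or control mice 4, 7 or 14 (adjusted p from 0.0505 to 0.0839). Of 23 other thiol enzymes and selenoproteins 2 were lower, the disulfide isomerase Txndc5 (-0.32 ± 0.055, adjusted p = 0.000641) and the thioredoxin-glutathione reductase Txnrd3 (-0.40 ± 0.099, adjusted p = 0.0132), and 0 higher.

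Of the genes of glutathione supply and breakdown 3 of 19 were higher and 1 lower. Anpep, an aminopeptidase that completes glutathione breakdown outside the cell, ran from 9.54 to 9.75 after sleep deprivation and from 9.88 to 10.12 in controls, a difference of -0.34 ± 0.045 without overlap (limma, adjusted p = 4.58e-05). Slc3a2, the partner chain of the cystine importer and of other amino acid transporters, was at 0.26 ± 0.057 (adjusted p = 0.00549), and the 5-oxoprolinase Oplah, which recycles glutamate from glutathione, at 0.21 ± 0.054 (adjusted p = 0.0179). Ahcy, an enzyme on the route from methionine to cysteine, was at 0.18 ± 0.052 (adjusted p = 0.0390), a call lost without sleep-deprived mice 1, 3, 5, 10 or 13 or control mice 4, 9, 11 or 12 (adjusted p from 0.0564 to 0.0889). Among 11 NRF2 partners and repressors 1 was lower, the ubiquitin ligase adaptor Btrc, which can mark NRF2 for degradation, at -0.24 ± 0.060 (adjusted p = 0.0161).

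**Figure D4:**
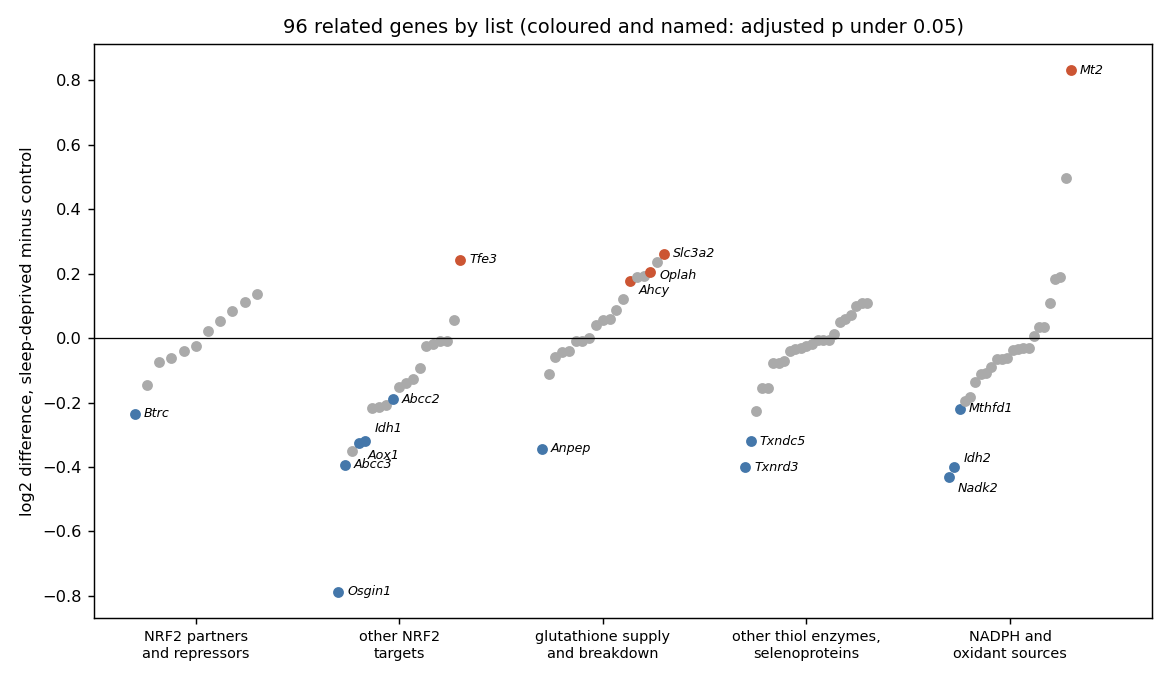
Log2 difference (sleep-deprived minus control, vertical axis) of the 96 measured related genes in 5 lists, each point being 1 gene. Genes past the test are coloured and named, 12 lower in blue and 5 higher in red; Osgin1 is lowest at -0.79 and Mt2 highest at 0.83.

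Markers of liver cell types were read beside these values. Sinusoidal endothelial markers had 3 of 8 higher and 0 lower (Lyve1, Oit3 and Pecam1). Their summed linear level was 1539 to 2025 in sleep-deprived and 1374 to 1741 in control livers. The other 5 did not pass, with Kdr at -0.18 (below the control mean in 7 of 7 sleep-deprived livers), Fcgr2b at 0.0054 and Stab1 at 0.17. Pericentral hepatocyte markers had 2 of 9 lower and 0 higher (Lgr5 and Lect2), summed 14220 to 15540 against 15050 to 16270. The other 7 did not pass and lay between -0.14 (Cyp1a2) and 0.077 (Glul, above the control mean in 7 of 7), and the median of the list was -0.036. The pericentral sum follows its brightest markers, such as Cyp2e1 (mean 12.95 in sleep-deprived livers), far more than Lgr5 (4.34). Periportal markers had 1 of 6 higher (Pck1) and 2 lower (Hal and Aldh1b1), summed 14550 to 15620 against 13850 to 15180. General hepatocyte markers had 3 of 8 higher (Apoa1, Cps1 and Tat) and 0 lower, summed 35520 to 37350 against 32660 to 35080. Stellate cell and cholangiocyte markers had 1 of 8 and 1 of 5 higher. Their summed levels were 1218 to 1732 against 1159 to 1577 and 99.9 to 187 against 81.9 to 105.5. Kupffer cell markers had 0 of 8 called (599.8 to 969.3 against 545.9 to 1285), neutrophil markers 0 of 6, and lymphocyte markers 1 of 7 lower (Cd79a). The part of cell composition in the differences of the antioxidant genes was not tested. Only 2 of 8 erythroid markers were measured (0 called), so that blood content is poorly covered.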

How the data were processed

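The authors deposited log2 expression values per probe set made by RMA, per the submitters' processing notes, from liver RNA (100 ng per array) labelled with a whole-transcript kit; software, annotation and filters are not stated. RMA compresses differences of dim genes. Array number, 7 per group, limits precision, and since the labels do not say that each sample is a separate animal, p-values measure the spread between these samples, which may be technical.

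Of 41345 probe sets, 23521 had 1 gene symbol in the platform annotation, 1814 several and 16010 none listed. The brightest per gene gave 22180 genes. Sleep-deprived minus control was fitted with limma 3.58.1 in R 4.3.3 (eBayes with intensity trend, two-sided) and adjusted by Benjamini-Hochberg; the steps were tested on simulated data. Groups came from titles, which share no replicate number. Members and lists were chosen with earlier results of these data known. Of 21 core members, G6pdx and Prdx1 were not measured. The members described were those past the threshold, the measured core members and the largest absolute difference in each system. Others were named where a count was 5 or fewer, and Txnrd2 and Blvrb after their values were seen. Related genes were up to 3 per list with the smallest adjusted p among those called, under the same exception for small counts. Alternatives were other eBayes settings, array weights, probe set rules, normalizations, the sample number as covariate, leaving out each mouse, and a minimum log2 change of 0.5.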

Additional observations from a re-analysis of the deposited data

Results flagged for a closer look

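In 74 sets of 7 values (37 measured members in 2 groups), 3 held a liver far from the others of its group by Dixon's criterion, where chance marks about 1 set in 20. Nqo2 was at 7.779 in sleep-deprived mouse 10, against 7.257 to 7.462 in the other 6. Sod3 was at 5.450 in control mouse 4, against 5.780 to 6.008. Prdx2 was at 6.474 in sleep-deprived mouse 5, against 6.607 to 6.688. The Nqo2 call held without mouse 10.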

How the results depend on the processing

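No paired analysis was possible because the groups share no replicate numbers. Of 207 alternative fits of the 9 called members, 157 kept the call, 50 lost it and 0 turned the direction; Gclc, Gclm, Nqo2 and Glrx kept it in all of theirs. Beside the losses named above, Nqo1 lost it in 5 further settings (sample number as covariate 0.0837) and Gpx1 in 7 (no intensity trend 0.228). The 17 called related genes lost the call in 32 of 391 fits, Txnrd3 with the sample number (0.0667). A log2 threshold of 0.5 left 391 genes (186 higher, 205 lower), 1 higher member (Txnip), 1 lower member (Gclc), 1 higher and 1 lower related gene. Testing the brighter genes alone gave 2259 genes changed, 4 members higher and 9 lower (Gss, Selenbp1, Selenbp2 and Txnrd2 gained) and 7 related genes higher and 13 lower. Related genes higher numbered 3 without the intensity trend and 8 with the sample number. Leaving out 1 mouse gave 1 to 4 members higher, 4 to 6 lower, 3 to 8 related genes higher and 1541 to 1893 genes changed. In such fits Srxn1 ranged from -0.0071 to 0.055 and Txnrd1 from -0.0059 to 0.042, around 0. A core followed by A left 2 members with a match in their windows. The causes of these changes were not tested.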
